A study of Mus musculus with 2 samples.

Results

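C-type lectins are carbohydrate-binding and related surface proteins with which macrophages take up glycoproteins and sense microbes, and 10 of their genes were followed here: Mrc1, Clec4a2, Clec4d, Clec4e, Clec4n, Clec5a, Clec7a, Clec10a, Mgl2 and Cd209a. Their probes were found by name, as those annotated with one of these gene symbols, which gave 11 probes for 10 genes of 22615 genes with a named probe. The 10 genes themselves were listed with earlier results of these data known. Their transcripts were measured in macrophages that had been grown in culture from the bone marrow of mice. One preparation was c-Maf+/-, with 1 working copy of the gene for the transcription factor c-Maf, and the other was c-Maf-/-, with none. Both were kept in M-CSF, the macrophage growth factor, for 5 days before 5 h with 100 ng/ml lipopolysaccharide (LPS), the bacterial cell wall component sensed by Toll-like receptor 4. The comparison asks which transcripts differ when c-Maf is missing from LPS-treated macrophages. The controls thus lacked 1 copy of c-Maf themselves, and the strain, the deleted part of the gene and the number of mice per preparation were not given in the sources used here.

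There was 1 one-colour array per genotype, and both lay on 1 slide. No test of the genotypes was possible, no p-value was computed, and each difference below is between these 2 arrays, as log2 of c-Maf-/- minus c-Maf+/-. The scanner software flagged 45.3% (c-Maf+/-) and 44.9% (c-Maf-/-) of the 59305 non-control spots as well above background. Maf itself checked the labels: its first probe read 15101 with 1 copy and 12.6, not well above background, with none, at least 636-fold lower, and its second probe was at least 22.8-fold lower. Of 10 macrophage marker genes, 10 were well above background on both arrays, with a median difference of 0.01 that turned below 0 under 2 of 11 other ways of processing. A signal is the background-subtracted brightness of a probe in arbitrary units, which can be set against the same probe on the other array but not against another probe.

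The family falls into groups by how its members act. Mrc1 encodes the mannose receptor, which internalises mannose-bearing glycoproteins and is a widely used marker of resident and interleukin-4-treated macrophages, and Cd209a encodes a relative of the dendritic cell receptor DC-SIGN. Clec10a and Mgl2 encode the macrophage galactose-type lectins. Clec7a encodes Dectin-1, the receptor for fungal beta-glucan, which carries its own activating motif, whereas Clec4n (Dectin-2), Clec4e (Mincle) and Clec4d (MCL) signal through the adaptor FcR gamma, encoded by Fcer1g. Clec5a pairs with the adaptor DAP12, encoded by Tyrobp, and Clec4a2 encodes DCIR, a receptor with an inhibitory motif. Activating members recruit the kinase Syk, which acts through the adaptor Card9 with Bcl10 and Malt1.

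Each probe is an oligonucleotide of 60 bases, and the first 30 bases are given, in lower case, for the member that differed most, for the next largest difference, and for the galactose-type pair, whose genes are close relatives.
Mrc1: ctttttcagcagtcctgattcatgtcagtt
Clec4n: gtcttgccctggtttctttctatgaactgc
Clec10a: ctgaaatctgtgatattttgtacagtgtgc
Mgl2: cgggtcccctcctccttccttcataactag
The Mrc1 probe lies at chr2:14253273-14253332 and the Clec4n probe at chr6:123196969-123197028, in mouse build mm9 as the files give it. The Clec10a probe lies at chr11:69984254-69984313 and the Mgl2 probe at chr11:69950985-69951044. Exons and untranslated regions of that build were not used here. The longest run of bases that the Clec10a and Mgl2 probes had in common was 5, so these probes were not copies of each other. The Mrc1 probe had a run of at most 14 bases in common with the probe of any other gene on the array, that of Vipr1.

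RefSeq promoter windows (build GRCm38.p6, 250 bases before to 50 after the gene's start) were at hand for 8 of the 10 members and are shown for Mrc1, the member that differed most, and for Clec5a, a measured member whose window held the searched Maf motif. Capitals mark matches, on either strand, to TGCTGA, a core stretch of Maf recognition elements, and to GAGGAA, the core bound by the macrophage factor PU.1. The windows are chr2:14229164-14229463 on the plus strand for Mrc1 and chr6:40585756-40586055 on the minus strand for Clec5a, written along the gene.
Mrc1: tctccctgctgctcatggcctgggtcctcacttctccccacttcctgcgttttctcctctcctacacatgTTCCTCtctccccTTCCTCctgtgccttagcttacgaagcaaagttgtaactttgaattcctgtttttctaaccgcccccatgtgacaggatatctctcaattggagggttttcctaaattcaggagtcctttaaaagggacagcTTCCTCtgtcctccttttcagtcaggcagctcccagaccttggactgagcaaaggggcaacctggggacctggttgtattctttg
Clec5a: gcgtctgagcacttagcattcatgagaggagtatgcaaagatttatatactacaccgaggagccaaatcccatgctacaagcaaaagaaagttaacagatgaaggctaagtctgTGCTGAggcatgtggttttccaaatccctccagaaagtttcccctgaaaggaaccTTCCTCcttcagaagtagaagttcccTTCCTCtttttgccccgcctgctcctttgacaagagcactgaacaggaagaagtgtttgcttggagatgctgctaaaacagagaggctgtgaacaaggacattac
TGCTGA was present in 3 of 8 member windows (Clec4a2, Clec5a and Cd209a) and in 19.5% of all 32851 windows of that length. The Mrc1 window held 0 matches to TGCTGA and 3 to GAGGAA. The PU.1 core was present in 6 of 8 member windows and in 28.3% of all windows, and TGAGTCA, the site of AP-1 factors, in 1 of 8 (Clec4a2) and 5.20% of all windows. No overlap between these motifs occurred in the 2 windows shown. These letter matches describe the windows only.

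Both arrays gave a level well above background for 8 of the 10 members, 1 array (c-Maf-/-) did so for Clec4a2, and no array did for Cd209a. Among the 8 measured members, 1 was at least 2-fold lower in c-Maf-/- and 0 were at least 2-fold higher. Because the members were listed with earlier results known, this count describes them only, and no conclusion is drawn from it beside the background. The background was 12434 genes with a level on both arrays, of which 1.74% were 2-fold or more lower, 1.43% 2-fold or more higher and 3.17% past 2-fold either way, so 45.2% of these calls were on the higher side, against 65.9% with scaling on the spike-in transcripts. The 8 measured members had a median difference of -0.03, and 4 lay above 0 and 4 below it. All genes had a median of -0.02. Spike-in scaling moved the median of all genes to 0.12 and that of the members to 0.11, and signs of values close to 0 depend on the scaling. Of the 7 measured members other than Mrc1, the lowest was Mgl2 and the highest Clec4n, at -0.18 and 0.69.

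**Figure D1:**
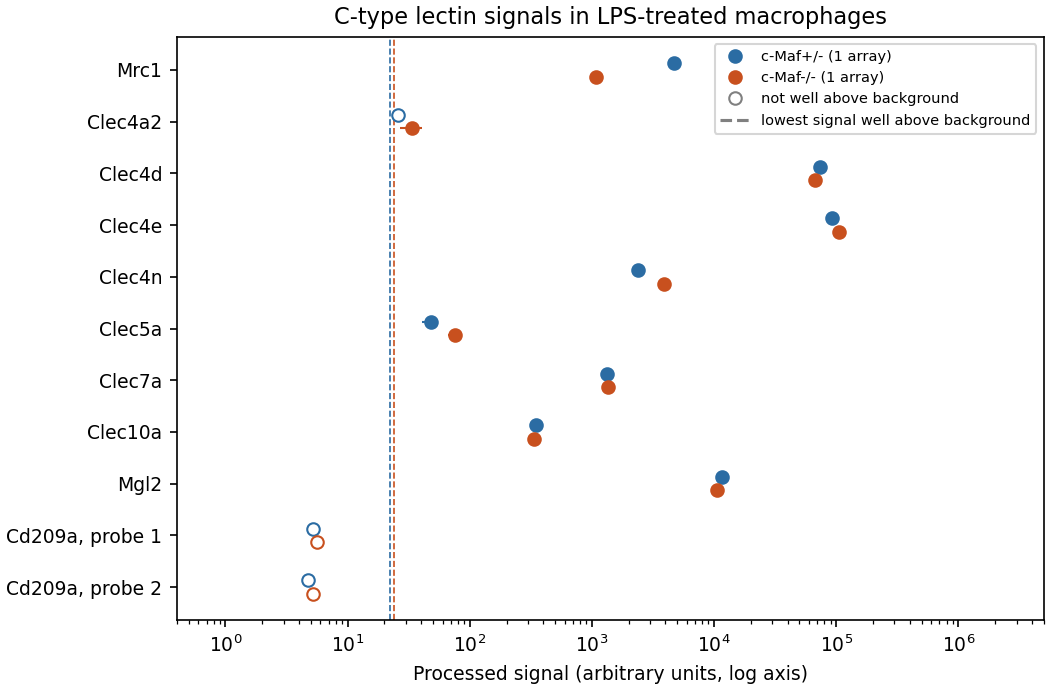
Processed signal of each member probe (arbitrary units, log axis) on the c-Maf+/- array (blue) and the c-Maf-/- array (orange), 1 array each. Bars on filled points are the error the scanner software assigns to the spot and are mostly narrower than the point. Open points were not well above background and have no bar, and dashed lines are each array's lowest signal well above background. Mrc1 is the member whose points lie farthest apart (4661 and 1080), and both Cd209a probes lie left of the dashed lines.

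Mrc1, the mannose receptor gene, was the member with the largest difference. Its signal was 4661 ± 466 (error given by the scanner software) in c-Maf+/- macrophages and 1080 ± 108 in c-Maf-/- macrophages. The c-Maf-/- signal was thus the lower one, and both were far from background, at 209 and 44.6 times the lowest signal well above background of their arrays. This was 4.39-fold lower in c-Maf-/-, a log2 difference of -2.14 with an error of 0.20 from the scanner software's model, which takes 10% of the signal as the error of a bright spot. The unsubtracted spot brightness gave 4081 and 979, a log2 ratio of -2.06 before scaling. Across the 11 other ways of processing, Mrc1 lay between -2.14 and -1.99 and stayed past 2-fold lower in each.

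Mrc1 was 14th from the lowest of the 12434 genes. With 2 arrays, likeness to Mrc1 can only mean a difference of similar size. By that measure its nearest neighbours with an official symbol were Il10 (-2.17), the anti-inflammatory cytokine gene, and the chemokine receptor gene Ccr3 (-2.18) below it, and Snn (-2.10) and the histone deacetylase gene Hdac9 (-2.02) above it. Each of these 4 rested on 1 probe. The Mrc1 value also rested on 1 spot of 1 probe. Where probes with a mean signal of 1000 or more had at least 8 spots (112 probes), the differences of these spots had a median SD of 0.04, with a 95th percentile of 0.07. Where genes of that brightness had at least 2 probes (1461 genes), the median SD between probes was 0.05 and its 95th percentile 0.29. These spreads cover the arrays, not cultures or mice. The 161 other measured spots within 10 rows and columns of the Mrc1 spot had a median difference of -0.04, and their middle 50% lay between -0.27 and 0.16.

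Genes near Mrc1 were examined for the same direction, a choice made after the values were seen. Within 500 kb of the Mrc1 probe, 7 other named genes had probes, of which 3 were measured on both arrays, with differences from -0.13 to 0.36. A probe of the zinc transporter gene Slc39a12, 104 kb from that of Mrc1, had signals of 6.11 (c-Maf+/-) and 79.5 (c-Maf-/-), at least 3.50-fold higher, while the other Slc39a12 probe was not well above background on either array (4.83 and 5.30). None of the 3 measured neighbours was past 2-fold, against 3.17% of all measured genes.

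**Figure D2:**
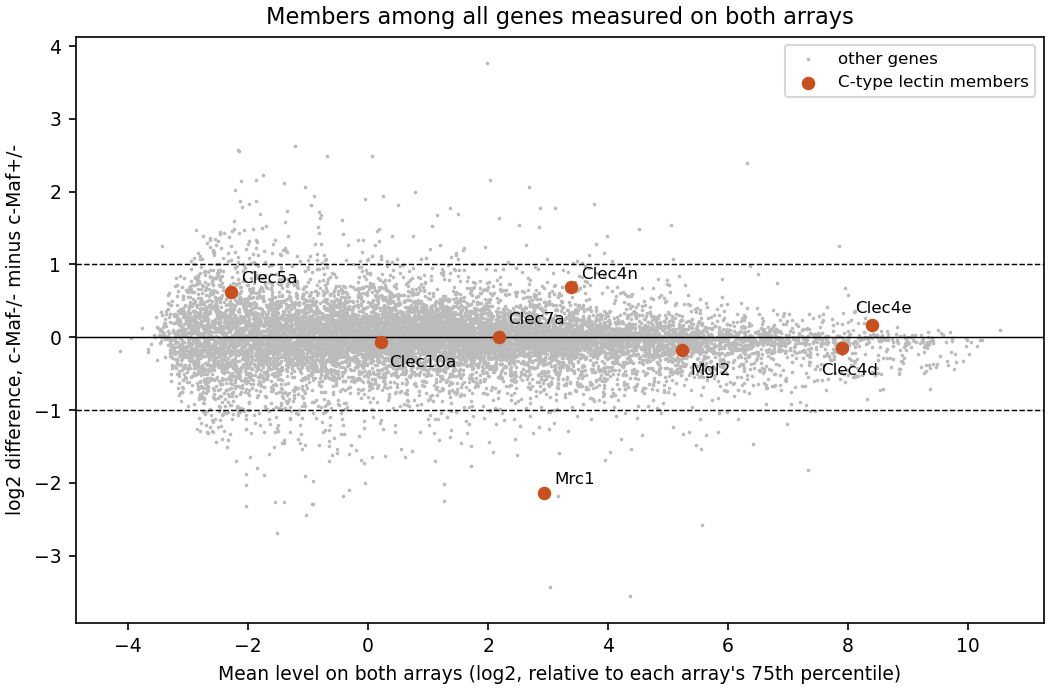
Log2 difference (c-Maf-/- minus c-Maf+/-) against the mean level on both arrays (log2, relative to each array's 75th percentile), 1 point per gene, for the 12434 genes measured on both arrays (grey) and the 8 measured members (orange). Dashed lines mark 2-fold. Mrc1 lies at -2.14, away from the bulk of genes of its level, and the other 7 members lie between the dashed lines.

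Cd209a, the DC-SIGN relative, was not measured above background. Its first probe had signals of 5.23 (c-Maf+/-) and 5.59 (c-Maf-/-), and its second probe 4.75 and 5.22. Neither was well above background on either array, so these values have no order and no fold is given. Of the 8 genes of the DC-SIGN cluster on chromosome 8, Cd209d alone was measured, with signals of 108 and 130.2, and the other 7 were not well above background.

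The galactose-type lectin genes lay close to 0. The Mgl2 signals were 11645 (c-Maf+/-) and 10482 (c-Maf-/-), a difference of -0.18. Clec10a had signals of 347 and 336, a difference of -0.07, which turned to 0.08 with spike-in scaling. For both genes the c-Maf-/- signal was slightly the lower one, by less than the software's error of 0.20 for Mgl2 and 0.21 for Clec10a. Asgr2, a hepatic asialoglycoprotein receptor gene of the same stretch of chromosome 11, was dim (55.7 and 65.8), and Asgr1 was not well above background.

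The fungal receptor genes did not all have the same difference. Clec7a, the Dectin-1 gene, had signals of 1324 (c-Maf+/-) and 1355 (c-Maf-/-), a difference of 0.01 that fell slightly below 0 under 2 of 11 alternatives. The 2 arrays were thus almost level for Dectin-1. Clec4n, the Dectin-2 gene, read 2387 ± 239 (software error) on the c-Maf+/- array against 3922 ± 392 on the other, 1.61-fold higher in c-Maf-/-. Its log2 difference was 0.69 with a software error of 0.20, and it ran from 0.66 to 0.84 over the alternatives. Of all measured genes, 3.67% had a difference at least that high. The difference exceeded the 95th percentile of the SD between probes of a gene at that brightness (0.29), but it did not reach 2-fold under any alternative and no second array bears on it.

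Clec4e and Clec4d, whose products Mincle and MCL form a receptor pair for mycobacterial glycolipids, were bright on both arrays. Clec4e had signals of 92613 (c-Maf+/-) and 105892 (c-Maf-/-), a difference of 0.17. Clec4d had signals of 73359 and 67386, a difference of -0.15, which moved to -0.00 when scaled on the spike-in transcripts. The pair thus lay on opposite sides of 0, each by less than the software's error of 0.20, and neither was saturated.

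Clec5a was dim. Its signal was 47.8 ± 6.82 (software error) in c-Maf+/- and 75.2 ± 9.21 in c-Maf-/-, only 2.14 and 3.11 times the lowest signal well above background of each array. The difference was 0.63 with a software error of 0.27, and 4.65% of all measured genes had one at least that high. Normexp correction gave 0.21 and unsubtracted brightness 0.34, and the gene left the measured set when a signal of 4 times the floor was asked for. For genes with a mean signal under 100 the SD between probes had a median of 0.25 and a 95th percentile of 0.88. The Clec5a difference, from 1 probe, lay between these 2 values, which are spreads on the arrays and not between cultures or mice. Clec4a2, the gene for the inhibitory receptor DCIR, read 25.8 ± 6.26 in c-Maf+/-, not well above background, against 33.8 ± 7.02 in c-Maf-/-. The scaled ratio was 1.29, which is no lower limit, and the software errors overlap.

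The Dectin-2 cluster on chromosome 6 holds 4 of the members (Clec4a2, Clec4n, Clec4d and Clec4e) among 9 genes whose probes span 348 kb. The members could thus be set beside neighbours that are not members, all of them from the list of other C-type lectins given below. The cluster was set out after values were seen. Of the 9 genes, 7 were measured on both arrays, and 0 of these 7 were past 2-fold. With 3.17% of all measured genes past 2-fold, few or none would be looked for in any 7 genes. They ran from -0.27 for Clec4a4, at signals of 38.8 and 32.7, to 0.69 for Clec4n, with a median of 0.04. Clec4a3 was at 0.35, Clec4a1 at 0.04 and Clec4b1 at -0.13, and Clec4b2 was not well above background. Next to each other at the end of the cluster, Clec4n, Clec4d and Clec4e had differences of 0.69, -0.15 and 0.17. In the Dectin-1 cluster, elsewhere on chromosome 6, 4 of 7 genes were measured. They ran from -0.79 for the oxidised lipoprotein receptor gene Olr1 to 0.20 for Clec12a, and Clec7a lay between them.

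**Figure D3:**
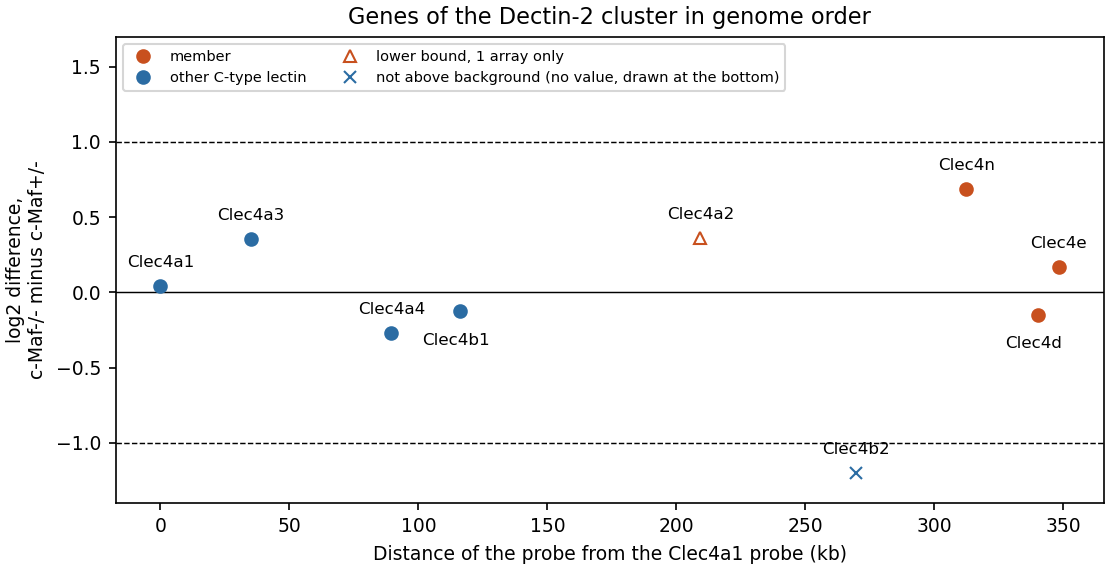
Log2 difference (c-Maf-/- minus c-Maf+/-) of the 9 genes of the Dectin-2 cluster against the distance of their probes from that of Clec4a1 (kb). Members are orange and other genes blue, the cross is a gene with no value, and dashed lines mark 2-fold. The triangle, labelled a lower bound, is Clec4a2. It is drawn at the ratio to a c-Maf+/- signal not well above background, which is no true limit. Clec4n is the highest at 0.69, while its neighbours Clec4d and Clec4e lie on either side of 0.

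Other genes of the lectin families and of the signalling path were taken from lists. Among 34 other myeloid and endocytic C-type lectins, 17 were measured, of which 1 was at least 2-fold lower and 0 were 2-fold higher, with a median of 0.04. The one past 2-fold was Cd69, an early activation antigen, at 21436 (c-Maf+/-) and 7804 (c-Maf-/-), a difference of -1.48 (past 2-fold under each of 11 alternatives). Mrc2 and Ly75, the genes most like Mrc1 in structure, were not well above background on either array, and neither was Pla2r1, a further gene of that type, so Mrc1 was the only one of these 4 with a level.

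The signalling genes stood closer to 0 than Mrc1. All 26 listed genes were measured, and 0 were past 2-fold in either direction, against 3.17% of all measured genes. Of the 26, 13 lay above 0 and 13 below, with a median of 0.01. The adaptor gene Fcer1g had signals of 195281 and 179234 (-0.15), and Tyrobp had 49388 and 51577 (0.04). Syk was at 0.13 over 2 probes with an SD of 0.27 between them. Card9 was highest at 0.90, from dim signals of 31.9 (c-Maf+/-) and 60.6 (c-Maf-/-). It was at 0.44 with normexp and past 2-fold under 1 of 10 alternatives (1.04 with spike-in scaling). Cblb was lowest at -0.84, from signals of 294 (c-Maf+/-) and 168 (c-Maf-/-). Its 2 probes had an SD of 0.01 between them, and it was past 2-fold under 0 of 11 alternatives.

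Lectins of other families and genes of alternative activation, the state in which Mrc1 is a marker, were set beside the members. Of 13 measured galectin and Siglec genes, 1 was 2-fold higher, Siglecf, a sialic acid receptor gene, and 0 were 2-fold lower. Only 1 of the 2 Siglecf probes was measured, with signals of 64.0 (c-Maf+/-) and 195 (c-Maf-/-). Its difference was 1.58, or 0.98 with normexp. With dim probes kept, where the other Siglecf probe enters the mean, the gene was at 0.84. Of 12 measured alternative activation genes other than Mrc1, 8 lay below 0 and 4 above, with a median of -0.63 that ran from -0.63 to -0.35 over the 11 alternatives. Il4ra, the interleukin-4 receptor alpha chain gene, was lower (-1.69 over 2 probes, SD 0.28), and Arg1, the arginase gene, was higher (signals of 78.9 and 309, a difference of 1.95 that was 1.32 with normexp). Mrc1 shared its sign with 8 of these 12 genes. All genes had a median of -0.02 and a 5th percentile of -0.66. A sign below 0 was thus common among all genes too, but a value as low as the list median of -0.63 was not.

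Markers of other cell types also differed between the arrays. Dendritic cell markers had 7 of 8 measured genes below 0, with a median of -0.93 (-0.94 to -0.51 over the 11 alternatives) and 3 past 2-fold (Fscn1, Itgax and Bcl11a, of which Itgax was past it under 8 of 11 alternatives and Bcl11a under 5 of 10), and Xcr1 and Dpp4 were not well above background. The summed signal of the 8 was 3465 in c-Maf+/- and 2781 in c-Maf-/-. Neutrophil markers had 8 of 8 measured genes below 0, with a median of -0.82 (-0.82 to -0.63), 4 past 2-fold (Ngp, Ltf, Mpo and S100a9, the last under 6 of 11 alternatives and Mpo under 9) and summed signals of 99907 and 55252, and Cxcr2 and Retnlg were not well above background. Monocyte markers had 7 of 8 measured genes above 0, with a median of 0.32 (0.07 to 0.47), 3 past 2-fold (Cx3cr1, Hp and Ccr2, the last under 9 of 11 alternatives), summed signals of 62631 and 123492, and Cd177 not well above background. The sums are weighted to the brightest probes and give no total of cells. The brightest were Ccr7 (2096 and 2058), S100a9 (68498 and 34671) and Hp (43224 and 105196). The next brightest monocyte marker, Chil3, went the other way from Hp (11457 and 5951). Mast cell and basophil markers had a median of -0.06 (-0.17 to 0.09) over 3 measured genes, lymphocyte markers -0.09 (-0.11 to 0.15) over 5, and stromal and endothelial markers -0.32 (-0.32 to -0.09) over 7, with 0 of these measured genes past 2-fold (3.17% of all measured genes were). A marker of each of 2 of these lists was well above background in c-Maf+/- only and past 2-fold, Cpa3 by its bound and Cdh5 by its ratio. The mast cell protease gene Cpa3 read 80.8 in c-Maf+/- against 9.52, at least 3.40-fold lower in c-Maf-/-. The endothelial cadherin gene Cdh5 read 65.8 against 28.9, 2.32-fold lower by the scaled ratio. This is no limit, because the c-Maf-/- signal lay above that array's lowest signal well above background (24.2) without being flagged so itself. Mrc1 is also made by dendritic cells, and Clec4n, Clec4d, Clec4e and Clec5a by monocytes and neutrophils. The part of these cells in the member differences was not tested, and in such bulk samples fewer cells of a type and less RNA per cell cannot be told apart.

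**Figure D4:**
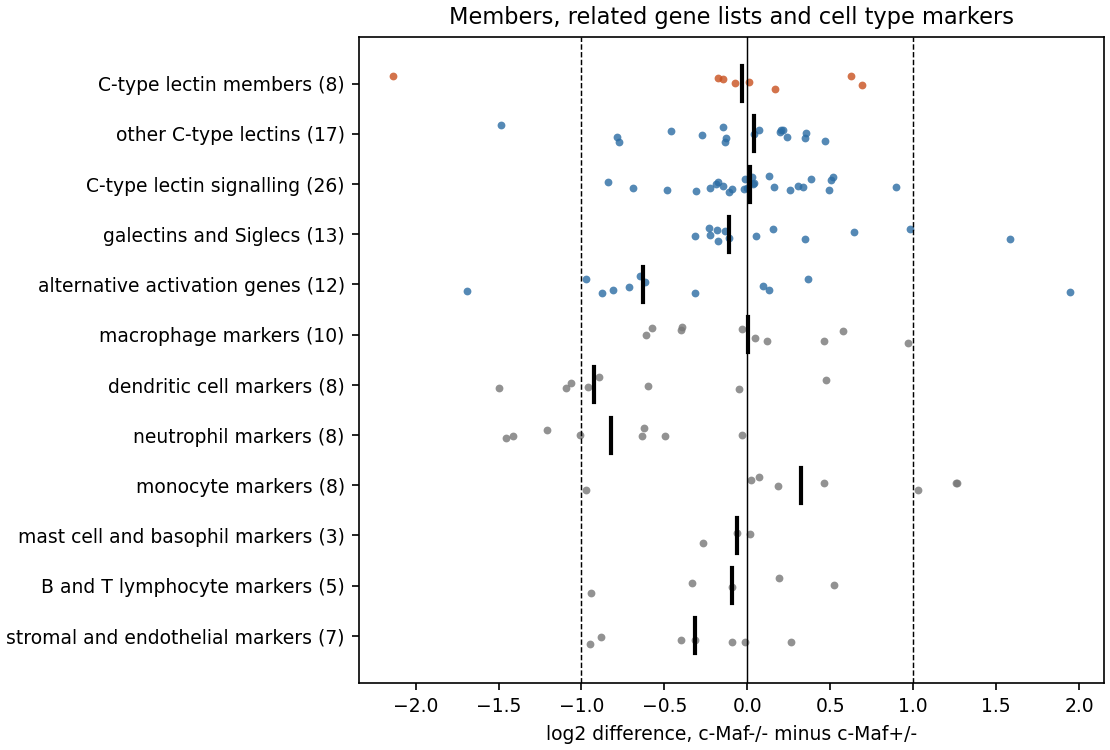
Log2 difference (c-Maf-/- minus c-Maf+/-) of each gene measured on both arrays, by list, with the number of genes in brackets. Members are orange, other lists blue and cell type markers grey, black bars are list medians, dashed lines mark 2-fold, and the vertical scatter within a list has no meaning. The member median lies at -0.03 with Mrc1 far to the left, and dendritic cell and neutrophil markers have medians of -0.93 (-0.94 to -0.51 over the alternatives) and -0.82.

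**Figure D5:**
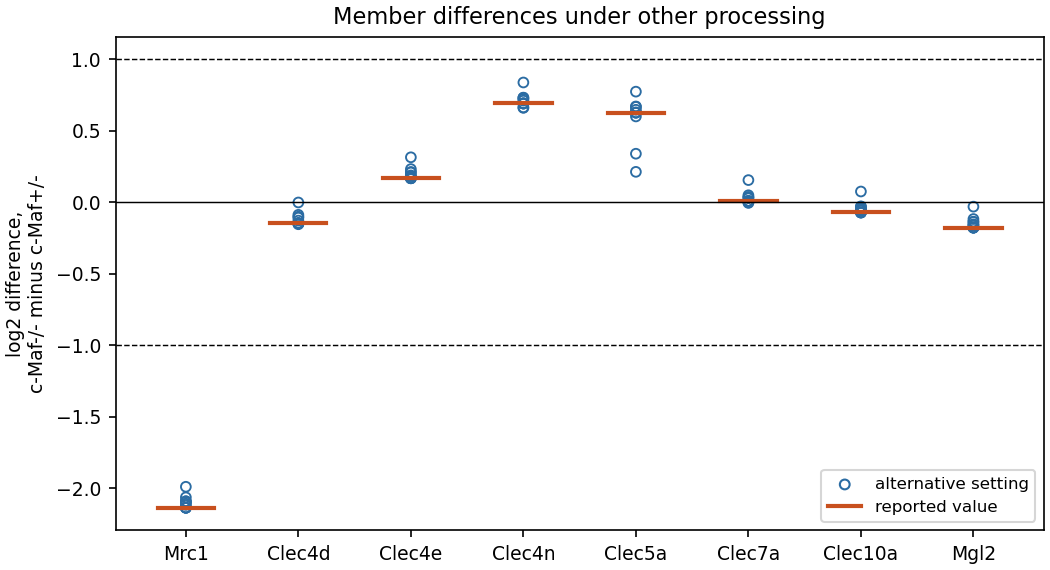
Log2 difference (c-Maf-/- minus c-Maf+/-) of the 8 measured members as reported (orange line) and under the other ways of processing (open circles, 11 each, 10 for Clec5a). Dashed lines mark 2-fold. Mrc1 stays between -2.14 and -1.99, and Clec5a, whose signals lie near background, ranges from 0.21 to 0.77.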

How the data were processed

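The deposited values are linear spot intensities from Agilent Feature Extraction 10.7.3.1 (array design 028005, 1 colour), per the file headers, background-subtracted with spatial detrending within each array and not normalized between arrays. The other deposited columns used were the mean and background intensities, the software's error, and 0 or 1 flags, per the file headers. 

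From log2 of the processed signal, each array's 75th percentile over non-control spots (291 and 296) was subtracted. Spots flagged as outliers (136 and 149) were dropped, 0 were saturated, and spots of a probe and measured probes of a gene were averaged. A probe counted as measured when well above background on both arrays. With 1 such array, the dim side was set to the higher of that array's lowest signal well above background (22.3 and 24.2) and its own signal. Where its own signal was the higher, as for Clec4a2 and Cdh5, the result is a ratio and not a limit. Arrays carry no depth, so their number limits the precision.

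Probes were given current symbols from a RefSeq table of build GRCm38.p6, by accession, symbol, other accession or older symbol. Of 55681 probes, 31817 matched, and counts cover these. Members kept the symbol of the files. Scripts used Python 3.11.15 and limma 3.58.1 and were tested on simulated data. The 11 alternatives were run and are given in the closing section.

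Named genes are the 10 members, list genes past 2-fold by value, bound or ratio, Fcer1g, Tyrobp, Syk, Card9 and Maf. The 2 genes on either side of Mrc1 in the order of differences were also named (predicted and clone names left out). Other genes were named after their values were seen. The members and lists were chosen with earlier results of these data known.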

Additional observations from a re-analysis of the deposited data

How the results depend on the processing

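Mrc1 kept its direction and stayed past 2-fold under all 11 alternatives (percentile or median of measured probes, spike-in, quantile and loess scaling, normexp, no background subtraction, dim probes kept, a floor of 4 times the lowest signal well above background, brightest probe, outlier spots kept), and the count of members past 2-fold was 1 lower and 0 higher under each. The median of the members was 0.11 with spike-in scaling. Over all genes, the counts at least 2-fold lower and higher were 216 and 178 as reported. They were 140 and 271 with spike-in scaling, 109 and 68 with normexp, and 124 and 82 without background subtraction. They were 871 and 885 with dim probes kept, where 22615 genes entered, and 128 and 89 with the floor of 4 times, where 10269 did. With dim probes kept, Clec4a2 was at 0.36 and Cd209a at 0.09, both without a level above background in c-Maf+/-. The signs of Clec7a and Clec10a changed under 2 and 1 alternatives. With 1 array per genotype, no replicate could be left out. No paired analysis was possible because each genotype had a single array. The dim signals of Clec5a and Clec4a2 limit their precision.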
